A study of Mus musculus with 3 samples.

Results

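The region described here is the centromeric part of mouse chromosome 7 that lies more than 10 Mb from the beta-globin (Hbb) viewpoint, as seen in a Capture-C profile of that viewpoint. Its members are all DpnII restriction fragments listed in the deposited Hbb profile whose midpoint lies below position 100976215 (mm9), a limit set by distance alone and not by read counts. There were 15066 such fragments among the 48123 listed on the chromosome (31.3%). They ran from chr7 3065378 to the limit at 10 Mb and covered 7700 kb, or 8.47% of the 90.9 Mb of sequence analysed. The samples were 3 NG-Capture-C libraries of 1 group, erythroid cells grown ex vivo from fetal livers of mixed-strain mice harvested at E12.5. All 3 were homozygous for HS2HS3, a deletion of both HS2 and HS3, enhancers of the beta-globin locus control region. Per the labels' protocols, cells of individual livers spent 6 days in expansion medium, were sorted for CD117 with magnetic columns and then differentiated during 24 h; the labels call the stage late erythroid. They were fixed with 2% formaldehyde for 10 min. Wild-type profiles were not analysed here, so every comparison is between positions of the same profiles.

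Capture-C counts how often a chosen viewpoint fragment is ligated to other fragments after crosslinked chromatin has been cut and religated, and reads joined to the same chromosome are called cis reads. Contact falls steeply with genomic distance, and beyond some megabases the remaining contacts are usually uneven, with stretches of active, gene-rich chromatin and stretches of inactive chromatin each tending to lie near their own kind. Hbb is among the most strongly transcribed genes of a late erythroid cell. In the RefSeq gene order of GRCm38, 1390 protein-coding genes lie on the centromeric side of the adult globin gene Hbb-bt, the nearest 10 Mb included. They include 126 genes of the vomeronasal receptor family Vmn1r and 52 of the family Vmn2r, 100 olfactory receptor genes, 26 kallikrein genes (secreted serine proteases) and 80 genes with Zfp symbols, a prefix used for zinc finger proteins. Ordered from the centromere, Apoe (a lipid transport protein), Cebpa (a transcription factor of myeloid and fat cells), the imprinted genes Ube3a, Snrpn and Ndn, and Tyr (the pigment enzyme tyrosinase) lie along it. That gene table is of another build than the profile, so no fragment or bin was assigned to a gene.

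The members held 6694, 7442 and 5087 reads in the first, the second and the third count column, the order in which the deposited table gives the 3 samples. These were 13.5% (95% exact binomial interval 13.2 to 13.8), 15.1% (14.8 to 15.4) and 13.6% (13.26 to 13.96) of the 49433, 49247 and 37382 cis reads. The interval of the second column did not overlap the others, and the mean share was 14.1% ± 0.89 (SD, n = 3). Reads were thin at the level of single fragments. Of the members, 9609 had reads in 1 column, 1041 in 2 columns and 240 in all 3, while 4176 (27.7%) had none in any column, so their place in the list does not rest on these reads. For a fragment without reads, the upper limit (3 reads) is 0.00607%, 0.00609% and 0.00803% of the cis reads of the respective columns.

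Single reads could not be taken as single ligation events. Within a column, fragments with 2 reads were 0.62, 0.64 and 0.58 times as many as fragments with 1 read, whereas fragments with 3 reads were only 0.13, 0.13 and 0.10 times as many as those with 2. Of the 3708 members with exactly 2 reads in all, 3425 (92.4%) had both in the same column and 283 had them in different columns. If reads fell independently on the columns in proportion to their totals, 34.1% would lie in the same column. The same was seen elsewhere on the chromosome, with 88.8% of 3565 such fragments beyond 10 Mb on the telomeric side and 82.3% of 3997 at 1 to 10 Mb. Pairs of columns were also compared over the region's 1 Mb bins that held 30 or more reads. The ratio of chi-square to its degrees of freedom was 1.91, 1.70 and 2.01 for reads (81 bins). With each fragment counted once per column in which it had a read, it was 0.90, 0.96 and 1.201 over the 76 bins that reached 30 on that count, so the bins compared are not quite the same. The binomial intervals above are therefore too narrow for independent events, and the bin tests below take their error from the spread between columns. What made the paired reads was not tested.

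**Figure D1:**
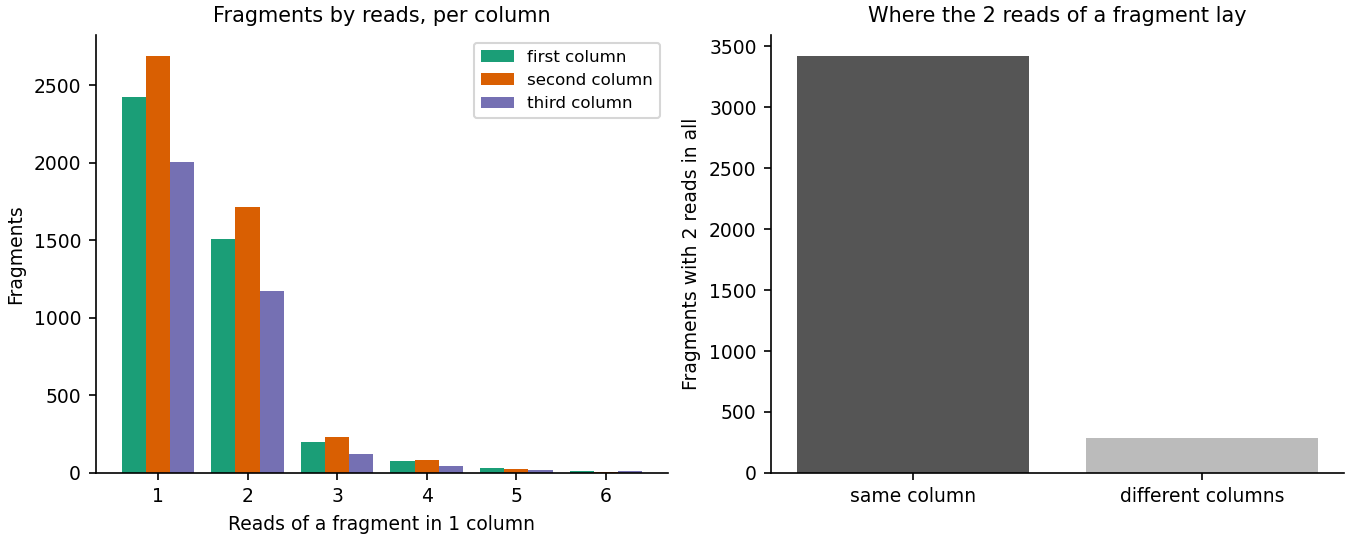
The left panel plots the number of member fragments (y axis) with 1 to 6 reads in a single column (x axis), with 1 bar per count column; the right panel plots the members with exactly 2 reads in all, by whether both lay in the same column. Fragments with 2 reads are far more frequent than fragments with 3, and 3425 of the 3708 fragments on the right have both reads in 1 column.

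Contact fell with distance in steps and not evenly. Densities are given as reads per Mb of sequence per 100000 cis reads of the same column. At 10 to 20 Mb from the viewpoint the columns held 490.2, 511 and 460.4, with a mean of 487 ± 25.6 (SD, n = 3), against 678 ± 50.1 at 5 to 10 Mb on the same side. The mean was 353 ± 36.9 at 20 to 30 Mb and 189 ± 7.25 at 30 to 40 Mb. At 40 to 50 Mb it was 62.7 ± 6.51, with 56.4, 69.5 and 62.3 in the columns. Farther out, at 50 to 60 Mb, it was higher again, at 111 ± 3.76, with 107, 115 and 111 in the columns. The ranges of the columns at 40 to 50 and 50 to 60 Mb thus did not overlap. Reads per listed fragment were 0.998 at 40 to 50 Mb and 1.01 at 50 to 60 Mb, with 85.6 and 149 fragments listed per Mb. The bin 58 to 59 Mb away held 469 of the 1511 reads at 50 to 60 Mb. From 60 to 100 Mb the density stayed between 45.0 ± 7.46 and 71.5 ± 9.31, and in the last range, to the first listed fragment 107.9 Mb away, it was 25.0 ± 5.11. The first 30 Mb of the region held 73.1% of its reads. The log-log slope of density on distance over the whole region was -1.46, -1.31 and -1.31 in the columns (mean -1.36 ± 0.085). Along with it the number of listed fragments fell, from 388 per Mb at 10 to 20 Mb to 41.1 per Mb beyond 100 Mb. Reads per listed fragment went from 1.72 to 0.81, and the slope per listed fragment was -0.29. The sources used here do not say how fragments were chosen for the list. If listing depended on reads, reads per listed fragment could stay near a floor. This split therefore does not separate contact from listing.

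**Figure D2:**
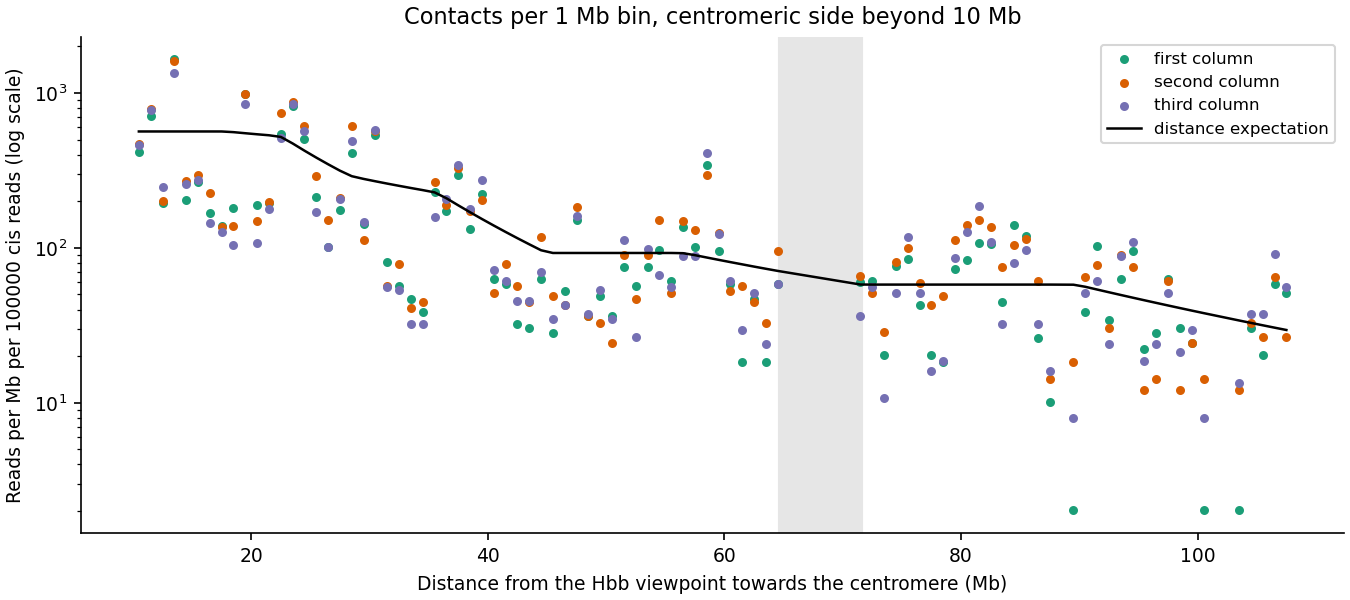
Reads per Mb per 100000 cis reads (y axis, log scale) in bins of 1 Mb by distance from the viewpoint (x axis, Mb), with 1 point per count column and the black line for the distance expectation; columns without reads in a bin have no point, and grey marks the stretch with no fragment in the table used. The values of the 3 columns correlate across 81 bins (Spearman 0.92 to 0.95 between columns), which includes their shared fall with distance. The bin 13 to 14 Mb away is the highest.

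On the opposite side of the viewpoint the same distances held more reads per Mb. At 10 to 40 Mb the telomeric side had 487 ± 39.7 and the centromeric side 343 ± 21.1, with column values of 460.1, 533 and 469 against 333, 367 and 328. The telomeric side was 1.42-fold higher (1.38-fold to 1.45-fold over the columns; log2 ratio of centromeric to telomeric -0.51 ± 0.037, SD, n = 3), and the columns of the 2 sides did not overlap. Exact enumeration of sign flips gave a two-sided p = 0.25, the smallest that 3 columns allow. The fold was 1.44 at 10 to 20 Mb, 1.37 at 20 to 30 Mb and 1.46 at 30 to 40 Mb. Per listed fragment the log2 ratio at 10 to 40 Mb was 0.022, -0.051 and -0.028, so the columns differed in sign (exact sign-flip p = 0.5, two-sided). At 20 to 40 Mb it was -0.064, -0.058 and -0.056, negative in every column (exact sign-flip p = 0.25, two-sided), a telomeric excess of 1.04-fold. At 10 to 40 Mb the telomeric side had 453 listed fragments per Mb and the centromeric side 323. At 20 to 40 Mb these were 391 and 291.

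**Figure D3:**
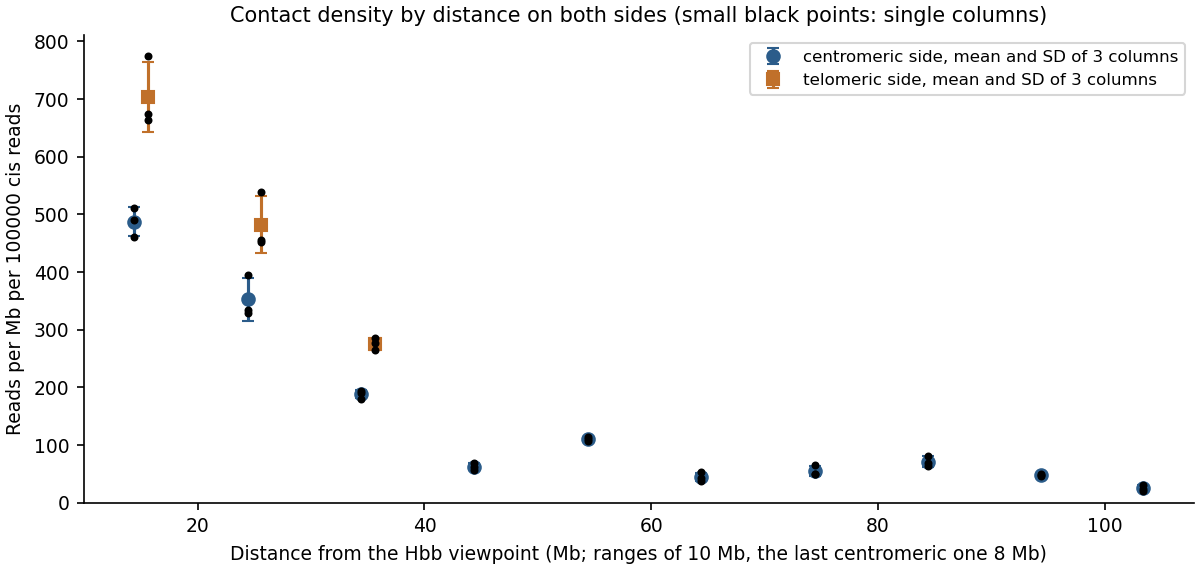
Reads per Mb per 100000 cis reads (y axis) by distance from the viewpoint (x axis, Mb), for the centromeric side (circles) and, to 40 Mb, the telomeric side (squares), as mean and SD of 3 columns, with single columns as black points. The telomeric values lie above the centromeric ones in each of the 3 shared ranges, and the centromeric value at 50 to 60 Mb lies above that at 40 to 50 Mb.

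The unevenness was then measured in bins of 1 Mb counted outwards from the viewpoint. Each was compared with a curve of density on distance drawn through both sides of the chromosome. The telomeric side ends not far beyond 40 Mb, at position 152521585, so farther out the curve rests mainly on the centromeric side itself. Of the 92 bins with sequence, 89 had at least 10 reads and were tested; the other 3, which began 88, 101 and 102 Mb away, held 4, 9 and 1 reads on 5, 20 and 2 listed fragments. In edgeR's quasi-likelihood test with Benjamini-Hochberg adjustment over all 139 bins of the chromosome, 25 of the 89 were above the curve and 43 below it at an adjusted p under 0.05. That is 76.4% of the bins, where 77.7% of all bins tested on the chromosome were called, so departures from the curve were no more frequent here than elsewhere. Over the chromosome 35.3% of bins were called higher and 42.4% lower, against 28.1% and 48.3% here. The median ratio of observed to expected reads was 0.80 here and 1.11 in the remaining bins. Both sides share the curve, so this contrast is not independent of the side difference given above. The 25 higher bins held 61.9% of the region's reads. Of the 68 calls, 67 had all 3 columns on the same side of the curve. The exception was the bin 56 to 57 Mb away, at 1.55, 1.504 and 0.97 times expectation in the columns.

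Higher and lower bins alternated over short distances. The 25 higher bins formed 17 separate blocks, 12 of them a single bin, and the longest was 4 bins, at 79 to 83 Mb. The lower bins formed 22 blocks, the longest of 5 bins at 14 to 19 Mb, where 1337 reads lay against 3830 expected. Of 85 pairs of adjoining bins, 40 differed by more than 2-fold, and in all 40 pairs the columns of one bin did not overlap those of the other. From 30 to 31 Mb, with a density of 556 ± 21.4, to the adjoining bin at 31 to 32 Mb, with 64.7 ± 14.1, the drop was 8.61-fold. Between 12 to 13 Mb and 13 to 14 Mb the density went from 214 ± 28.2 to 1535 ± 159, a 7.18-fold rise away from the viewpoint.

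The bin 13 to 14 Mb away, chr7:96976215-97976214, held the most reads, 815, 790 and 506 in the columns, or 10.98% of all reads of the region on 862 listed fragments. It stood at 2.74 times expectation (95% interval 2.55 to 2.94; 3.09, 2.67 and 2.44 in the columns; adjusted p = 2.30e-79). The highest ratio belonged to a much more distant bin, 58 to 59 Mb away at chr7:51976215-52976214, with 169, 146 and 154 reads. Its ratio was 4.03 (3.53 to 4.60), with 4.17, 3.21 and 4.84 in the columns (adjusted p = 4.45e-56). The bin 30 to 31 Mb away, chr7:79976215-80976214, held 263, 278 and 214 reads and stood at 2.07 times expectation (1.87 to 2.29). In these 3 bins every column was above the curve, and the columns differed from each other by less than their distance from it. With a power law as the curve the bins at 13 to 14, 58 to 59 and 30 to 31 Mb were at 3.73, 3.59 and 3.01. The intervals do not include the choice of curve.

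Close to the centromere the higher bins rested on few reads. The adjoining bins at 80 to 83 Mb, chr7:27976215-30976214, stood at 1.99, 2.53 and 2.02 times expectation with 157, 197 and 160 reads, 41 to 74 in any column. The bin 94 to 95 Mb away held 47, 37 and 41 reads at a ratio of 1.95 (1.49 to 2.54). The bin 106 to 107 Mb away, chr7:3976215-4976214, near the first listed fragment, held 29, 32 and 34 reads at 2.31 times expectation (1.70 to 3.15; adjusted p = 4.23e-07). With a power law as the curve this last bin was at 1.31 and no longer called (adjusted p = 0.089; edgeR).

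Directly beyond the peak at 30 to 31 Mb lay a trough. The 4 bins at 31 to 35 Mb, chr7:75976215-79976214, held 284 reads where 1348 were expected. Their ratios were 0.25, 0.25, 0.17 and 0.16, with 89, 87, 55 and 53 reads, and none of the 12 column values was above 0.33. Only 3.0% to 4.1% of their sequence was listed. Per listed fragment the 4 bins were at 0.81, 0.82, 0.70 and 0.72 times expectation, and none was called (adjusted p = 0.21 to 0.48, edgeR). The bin 14 to 15 Mb away, with 331 reads, was called lower at 0.71 on that measure (adjusted p = 2.73e-04, edgeR). Missing calls on so few reads therefore do not place these 4 bins at expectation. Nearer, the bin 17 to 18 Mb away held 68, 67 and 47 reads at a ratio per length of 0.24 (0.19 to 0.30; adjusted p = 8.78e-27). With a power law as the curve, this bin was at 0.42 and those at 31 to 35 Mb at 0.24 to 0.37, all still called lower. Close to the centromere the bins at 87 to 88, 89 to 90 and 100 to 101 Mb held 18, 13 and 11 reads, at ratios of 0.23, 0.16 and 0.21. The first column had 5, 1 and 1 of these, so the size of the ratio there depends on a handful of fragments.

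Which of these departures stayed when only listed fragments were considered was a separate question, because the list thins with distance and the sources used here do not say how it was made. Measured as reads per listed fragment, 3 bins were called higher and 8 lower among the 89 (12.4%), against 23% of all bins of the chromosome (8.63% higher and 14.4% lower). Those 89 are among all bins, and of the 50 bins outside the region 42% were called. The 3 higher were those at 13 to 14, 19 to 20 and 30 to 31 Mb, at 1.49, 1.39 and 1.45 times expectation (adjusted p = 8.46e-20, 1.50e-11 and 2.98e-10 from edgeR). The 8 lower lay at 12 to 13 Mb, in each bin from 14 to 19 Mb and at 20 to 22 Mb, at 0.62 to 0.75. All 11 had the same direction per length and lay at 12 to 31 Mb. Farther out, the bin 103 to 104 Mb away was at 0.61 per listed fragment on 12 reads and was not called (adjusted p = 0.46, edgeR). A missing call on few reads thus does not place a bin at expectation. The bin 58 to 59 Mb away was at 1.10 (adjusted p = 0.45, edgeR) per listed fragment and those at 80 to 83 Mb at 0.90 to 1.19. In these bins the excess lay in the number of listed fragments, and whether that number depends on reads was not tested. The number of listed fragments per Mb followed the reads closely over the 89 bins (Spearman rho 0.99, which shares the fragments). So did the number of listed fragments that had no read in any of these columns (rho 0.91): the bin at 13 to 14 Mb listed 144 such fragments and the bin at 34 to 35 Mb 21.

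**Figure D4:**
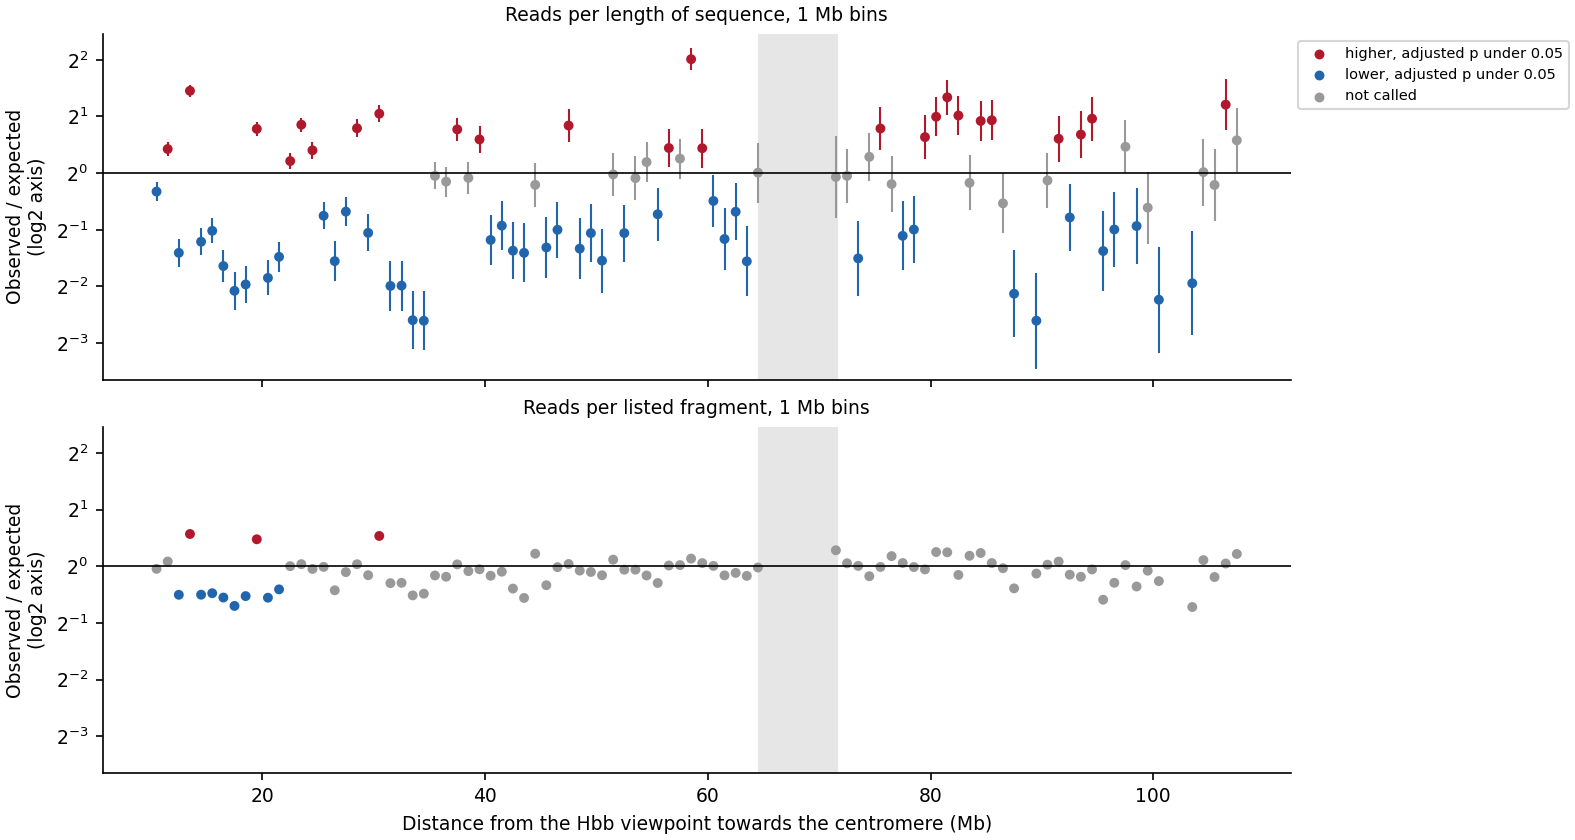
Ratio of observed to expected reads (y axis, log2 scale) in 1 Mb bins by distance from the viewpoint (x axis, Mb), per length of sequence with 95% intervals (top) and per listed fragment (bottom); red and blue mark bins called higher and lower, grey points those not called, and the grey band the stretch with no fragment in the table used. Ratios per length range from 0.16 to 4.03 and those per listed fragment from 0.61 to 1.49.

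At finer scale the nearer peaks were narrow. Of 910 windows of 100 kb, 68 (7.47%) held 50% of the region's reads, while 36 had no listed fragment and the median window held 9 reads. Beyond 40 Mb most windows had too few reads to be tested, so runs of windows are described for 10 to 40 Mb, where 255 of 300 windows were, and beyond that range only the bin with the highest ratio is taken up. Over the chromosome 68.1% of the 100 kb windows tested were called in one direction or the other, and 27.3% were called higher. Between 10 and 40 Mb, 17 runs of adjoining windows were called higher with a ratio of at least 2. They are delimited by their own counts, so their values are a description.

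The run with the most reads, 13.6 to 13.9 Mb away at chr7:97076215-97376214, held 606, 534 and 366 reads in 300 kb, or 7.83% of all reads of the region. Its density was 3655 ± 413 (SD, n = 3), at 6.53 ± 0.99 times expectation, and 86.9% of its sequence was listed. On its side away from the viewpoint the next window held 72 reads, against 289 in the last window of the run. Its neighbour at 13.3 to 13.4 Mb held 95, 118 and 60 reads, and the windows from 13 to 13.3 Mb held 28, 37 and 35 in all columns together. The single window at 19.1 to 19.2 Mb, chr7:91776215-91876214, had a density of 3956 ± 521 and 223, 191 and 130 reads, or 42.2% of the reads of its megabase. A second window of the same megabase, at 19.9 to 20 Mb, held 92, 97 and 82. At 30.2 to 30.4 Mb, chr7:80576215-80776214, 207, 226 and 164 reads gave 8.14 ± 0.32 times expectation, the highest of the runs within 40 Mb. Its first window held 58.1% of the reads of that megabase. The run at 10.9 to 11.3 Mb, chr7:99676215-100076214, held 358, 393 and 308 reads at 3.49 ± 0.28 times expectation. It crosses a bin edge, and its first window held 51.7% of the reads of the bin at 10 to 11 Mb, which as a whole was called lower (ratio 0.80).

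The run at 23.4 to 23.7 Mb held 204, 228 and 170 reads (3.17 ± 0.18 times expectation) and that at 27.9 to 28.3 Mb 175, 253 and 168 (3.68 ± 0.46). Their reads per listed fragment were 1.62 and 1.54, against 1.28 over all members, whereas the run at 13.6 to 13.9 Mb had 3.06 and the window at 19.1 to 19.2 Mb had 3.30. In the bin 58 to 59 Mb away, which had the highest ratio of all, 9 of the 10 windows were called higher and no window held more than 93 of its 469 reads. Its excess was spread over the megabase, in contrast to the bin at 30 to 31 Mb.

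**Figure D5:**
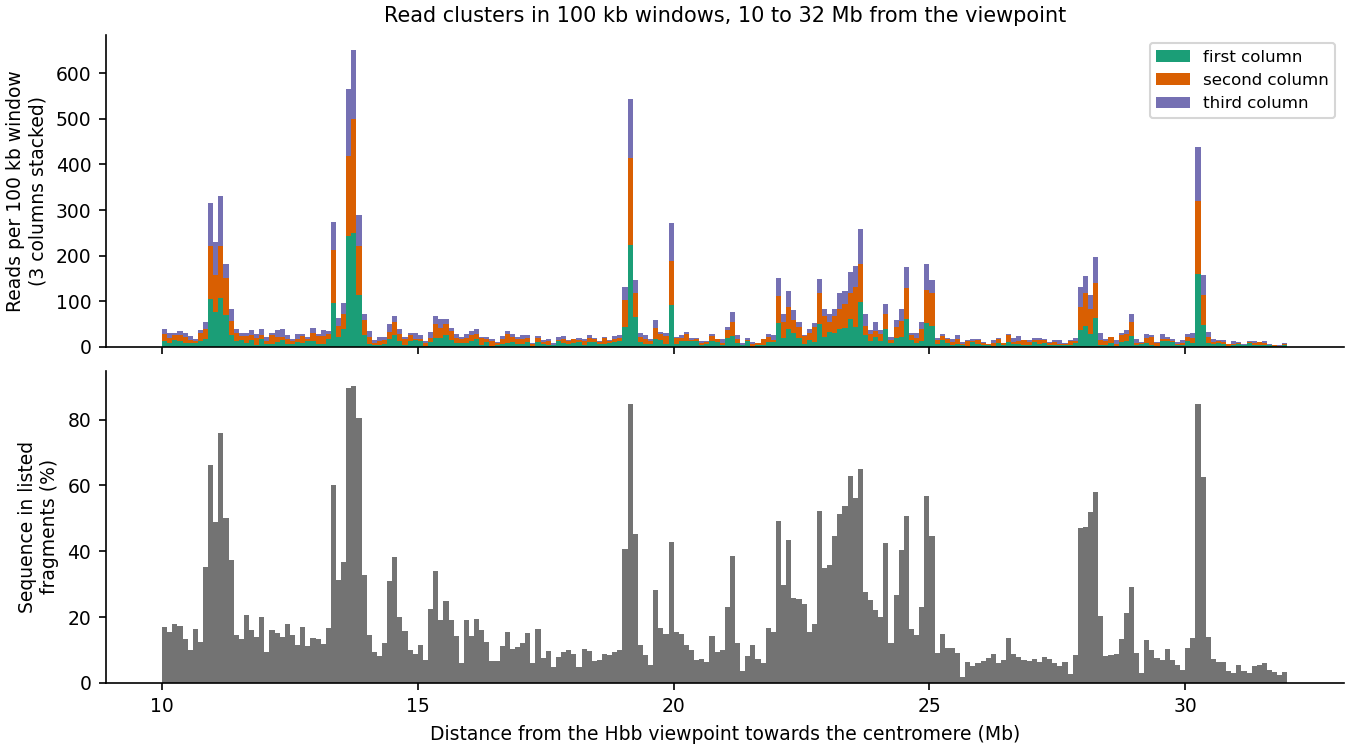
Reads per 100 kb window, stacked over the 3 count columns (top), and the share of each window's sequence that is in listed fragments (bottom, percent), against distance from the viewpoint (x axis, Mb) for 10 to 32 Mb. Narrow peaks stand at 10.9 to 11.3, 13.6 to 13.9, 19.1 to 19.2 and 30.2 to 30.4 Mb, each with all 3 columns, and the listed share has peaks at the same places.

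Among single fragments, none carried the region's signal by itself. The most reads on 1 member were 25, at chr7:97293969-97294745, 13.7 Mb away, with 4, 13 and 8 in the columns. The next 4 were chr7:97279183-97279432 with 24 reads, chr7:97280184-97280408 with 23, chr7:97280409-97282241 with 22 and chr7:99813438-99814720 with 22. The first 4 of these 5 lie within the run at 13.6 to 13.9 Mb and the fifth in the run at 10.9 to 11.3 Mb, and each had reads in all 3 columns. Of the 15066 members, 57 had 10 reads or more, and these lay in 5 bins. The bin at 13 to 14 Mb held 28 of them, that at 19 to 20 Mb 11, that at 30 to 31 Mb 7, that at 11 to 12 Mb 6 and that at 10 to 11 Mb 5. Capping every fragment at 5 reads per column left the number of higher and lower bins at 25 and 43.

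The longest stretch without a listed fragment was chr7:39346491-46383708, 7.04 Mb long and 64.6 to 71.6 Mb from the viewpoint. The megabase on either side of it listed 76 and 75 fragments with 81 and 69 reads. This stretch is not analysed here and was left out of bin lengths. The next longest, of 678 kb at chr7:8313250-8991379 and 581 kb at chr7:10075858-10656822, lie close to the centromere, 102 to 102.7 and 100.3 to 100.9 Mb from the viewpoint. They were kept as sequence without reads, and the latter fills more than 50% of the bin at 100 to 101 Mb.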

How the data were processed

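The members and the comparisons were chosen with earlier results of these data known. Per the submitters' processing notes, Trim Galore, Bowtie2 and the build mm9 were used, without versions. The deposited values are raw read counts per DpnII fragment of chromosome 7. The sources used here do not say how junctions were counted, duplicates removed or fragments chosen for the list. Its header has 1 cell for 3 count columns, so columns carry the group and no replicate number. The labels do not tie a column to a liver, so p-values measure the spread between these columns, which may be technical.

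The viewpoint was set to position 110976215, midway in the gap (1.5 kb or longer) that adjoins the most-read fragment of the list. Unlisted fragments counted as no reads, and stretches over 1 Mb without listed fragments were left out. Expected reads came from an isotonic curve (scikit-learn 1.9.0) through 10 distance bins per decade from 1 Mb outwards on both sides. Beyond the telomeric end only centromeric fragments entered these distance bins. Bins of 1 Mb with at least 10 reads were tested with edgeR 4.0.16 (TMM, quasi-likelihood F from the deviances of an intercept-only fit and of a null model fixed at the expectation, since glmQLFTest takes no such design). The curve was treated as known, so its own error is not in the p-values. DESeq2 1.42.0 was an alternative, with bin-wise dispersions because its trend could not be fitted. The edgeR procedure was also run on simulated bins with known ratios, most of them at the expectation, with the true expectation given. That run does not cover error of the curve or data in which most bins depart from it. Single values over columns were tested by exact sign flips. Described bins were the 8 highest and 8 lowest ratios among called bins with all columns on one side, the 5 fragments with the most reads and the 3 longest unlisted stretches. The runs of 100 kb windows and the bins named beside them were chosen after seeing the data.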

Additional observations from a re-analysis of the deposited data

How the results depend on the processing

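The counts of 25 higher and 43 lower bins were 22 to 24 and 37 to 40 when 1 column was left out, and stayed within 1.5 times under DESeq2's size factors and test, other curves, no read filter, capping and omission of short fragments. Per listed kb they were 3 and 7 and per listed fragment 3 and 8. Smaller bins give more units, with 114 higher and 147 lower at 100 kb and 37 higher and 76 lower at 500 kb. Only 431 of the 910 windows of 100 kb were tested. Where fewer than 10 reads were expected, only windows above the curve could be tested, so these counts also depend on the read filter. The share of cis reads, 13.6% to 14.4% without 1 column, was 21.8% with fragments capped, 26.4% of reads beyond 1 Mb and, with fragments in place of reads (chosen after seeing the data), 25.2%. The slope, -1.38 to -1.31 without 1 column, was -0.12 per listed kb, -0.29 per listed fragment, -0.87 in 100 kb bins (which drop empty bins), -1.51 at 10 to 50 Mb and -1.80 beyond 50 Mb (chosen after seeing the data). The log2 side ratio, -0.53 to -0.49 without 1 column, was -0.056 per listed kb and -0.019 per listed fragment. Of the 16 named bins, 3 kept their call per listed kb and per listed fragment. Those at 106, 82, 94 and 100 Mb turned per listed kb, to 0.97, 0.80, 0.94 and 1.23, and those at 82 and 94 Mb per listed fragment, to 0.90 and 0.96. The cause of these changes was not tested. Without the second column, without the third and with fragments in place of reads, 14, 15 and 14 of the 16 bins had the 10 counts a test needs and kept their call. The adjusted p-values moved far more than the ratios. Without the second column the bins at 13 to 14 and 58 to 59 Mb had 6.50e-04 and 4.61e-04 (edgeR), at ratios of 2.79 and 4.43. Without the first or the third column theirs were 1.06e-27 or lower. No paired analysis was possible because there is 1 group and the columns carry no replicate numbers.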

Other observations

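Within the region, reads per listed fragment were lowest in the shortest fragments and varied little from 200 bp upwards. The share of fragments with no read was lowest at 300 to 500 bp, at 22.55%, and was 33.95% at 1000 to 2000 bp. Fragments of up to 100 bp held 0.94 reads each and 40.5% of them had none. Those of 100 to 200 bp held 1.17, and the classes from 200 bp upwards held 1.31 to 1.37, although per kb of listed sequence reads fell from 14.5 in the shortest class to 0.53 in fragments over 2000 bp. Values per listed kb therefore follow the mix of fragment lengths as well as contact.

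The columns overlapped little in the fragments they touched and closely in the bins. The first and second column shared 678 fragments with reads, 15.9% of the 4264 of the first and 14.2% of the 4767 of the second. The third column shared 532 with the first and 551 with the second, 15.7% and 16.3% of its 3380. The overlap that independent columns would give was not computed. Over 81 bins of 1 Mb with at least 30 reads, the Spearman correlations between columns were 0.93, 0.95 and 0.92, which are across bins of 1 profile and not across samples. All columns share 1 list, with 15 to 862 fragments per tested bin, a number that itself followed reads (rho 0.99). The agreement in bins therefore includes that of the shared list and of the shared fall with distance.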
